A study of Mus musculus with 2 samples.

Results

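The antiviral nucleic acid sensors and the oligoadenylate synthetase (OAS) genes were followed as a group of 10 genes, chosen by name, out of 27998 genes in the annotation of the count files. They are the RNA helicases *Ddx58* (RIG-I), *Ifih1* (MDA5) and *Dhx58* (LGP2), the Z-form nucleic acid sensor *Zbp1*, the synthetases *Oas1a*, *Oas2* and *Oas3*, the OAS-like genes *Oasl1* and *Oasl2*, and the RNA-activated kinase *Eif2ak2* (PKR). All 10 were detected in both libraries. CD45+ leukocytes had been sorted from the brains of untreated C57Bl/6 mice at p21, from twitcher mice (twi, galc-/-), a model of globoid cell leukodystrophy that lacks galactosylceramidase, and from wt littermates (WT, galc+/+). For each genotype the cells of 2 to 3 animals went into a single 3′ v2 library (10x Genomics), which tags every captured transcript with a unique molecular identifier (UMI). With 1 library per genotype there was no replicate check, so no test was made. Every interval given with a ratio is a 95% interval and covers counting error only.

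RIG-I and MDA5 bind viral RNA and signal through the mitochondrial adaptor MAVS to interferon genes, and LGP2, which lacks their signalling domain, modulates both. The OAS enzymes make short 2′-5′ linked adenylate chains when they meet long duplex RNA, and these chains act as a messenger that leads to RNA decay. PKR stops translation by phosphorylating eIF2α, ZBP1 can engage the necroptosis kinase RIPK3, and the genes of the group are themselves induced by interferon through factors that include STAT2 and IRF9.

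Sequencing gave 3749714 UMIs over 1278 barcodes for WT (median 2216) and 4807539 UMIs over 1220 barcodes for twi (median 3149.5). No barcode was shared. After removal of barcodes with more than 15% mitochondrial UMIs, 1271 WT and 1207 twi cells remained. The libraries also differed in sex transcripts. *Xist* without any Y-linked transcript was seen in 0 WT cells (a count of 0 allows up to 0.236%) and in 548 twi cells (45.4%), whereas Y-linked transcripts without *Xist* were seen in 487 WT cells (38.3%) and 207 twi cells (17.2%). The labels do not give the sex of the animals, so the summed level is also given for cells with Y-linked transcripts only. *Galc* had 4 UMIs in WT and 8 in twi, but the mutation of twi is not read by 3′ tags, so this gives no check of the labels.

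Cells were placed in 8 classes by gates on marker genes that included none of the 10 genes. The gates held 109 WT and 420 twi CD8 T cells, 45 and 68 CD4 T cells, 7 and 42 *Cd163l1*+ T cells, 68 and 62 natural killer (NK) cells, 558 and 167 B cells, 216 and 60 neutrophils, 32 and 44 monocytes, and 18 and 16 cells with complement C1q transcripts, called microglia here. The microglia gate also takes other macrophages with C1q. The summed level of the microglial genes *P2ry12*, *Tmem119*, *Cx3cr1* and *Sparc*, all 4 of which were detected in both libraries, was 17505 CPM (counts per 1e6 UMIs) in WT and 5738 CPM in twi, and the part of this in the results for microglia was not tested. *Lck* and *Cd2*, which checked the T cell gates, were as high in NK cells as in T cells. In the *Cd163l1*+ T gate they were low, at 151 CPM in WT and 262 CPM in twi, and that gate rested on *Cd163l1* alone, so no T cell subset name is given to it.

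The loci were taken from GENCODE M21 on GRCm38. *Oas2* (chr5:120730333-120749853), *Oas3* (chr5:120753098-120777661) and *Oas1a* (chr5:120896256-120907521) lie in 1 cluster on the minus strand of chromosome 5, and *Oasl2* (chr5:114896936-114912234) and *Oasl1* (chr5:114923240-114937915) lie close together on its plus strand. *Ddx58* lies at chr4:40203773-40239828, *Ifih1* at chr2:62595798-62646255, *Zbp1* at chr2:173206612-173218923, *Dhx58* at chr11:100694884-100704271 and *Eif2ak2* at chr17:78852564-78882573, all on the minus strand. Because the assay reads 3′ ends, the last 500 bases of each coding transcript were searched for 50-base windows that also occur in another gene. In *Oas1a* 56.1% of the windows were shared with its paralog *Oas1g*, so its count is uncertain. In *Oas3* 2.44% of the windows were shared with other genes, and in the other 8 members none was. *Dhx58*, *Oasl1* and *Eif2ak2* each overlap an annotated gene on the opposite strand (*Dhx58os*, *Gm13822* and *Gm26637*), and since no source used here says that strand was used in the counting, their counts are uncertain to that extent.

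Interferon acts on such genes through an element with paired GAAA boxes, written GAAANNGAAA on one strand and TTTCNNTTTC on the other, and this pattern was searched on both strands in RefSeq promoter windows of 250 bases before to 50 bases after each start (GRCm38.p6). It occurred in 1131 of 32851 windows, or 3.44%. Counted by gene, 1079 of 27025 genes, or 3.99%, had it in a window. Of the members 7 had a window in the table, and 5 of these held the pattern: *Ddx58*, *Ifih1*, *Oas1a*, *Oas3* and *Eif2ak2*. *Oasl1* and *Oasl2* held none, and *Dhx58*, *Zbp1* and *Oas2* were not listed. The 250 bases before the start are shown for the 2 genes with the largest ratio of twi to WT in CD8 T cells and for the gene with the lowest, with the pattern in capitals.
*Oas1a*, chr5:120907526-120907775, minus strand: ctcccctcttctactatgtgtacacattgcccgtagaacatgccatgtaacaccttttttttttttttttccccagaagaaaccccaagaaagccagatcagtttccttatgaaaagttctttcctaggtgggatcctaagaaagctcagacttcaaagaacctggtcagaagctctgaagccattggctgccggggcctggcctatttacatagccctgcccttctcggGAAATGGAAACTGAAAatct
*Oas3*, chr5:120777660-120777909, minus strand: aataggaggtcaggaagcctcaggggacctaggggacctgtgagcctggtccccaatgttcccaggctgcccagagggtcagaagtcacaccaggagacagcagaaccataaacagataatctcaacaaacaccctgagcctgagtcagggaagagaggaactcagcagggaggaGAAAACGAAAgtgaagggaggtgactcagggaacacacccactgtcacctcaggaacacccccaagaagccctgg
*Oasl2*, chr5:114896684-114896933, plus strand: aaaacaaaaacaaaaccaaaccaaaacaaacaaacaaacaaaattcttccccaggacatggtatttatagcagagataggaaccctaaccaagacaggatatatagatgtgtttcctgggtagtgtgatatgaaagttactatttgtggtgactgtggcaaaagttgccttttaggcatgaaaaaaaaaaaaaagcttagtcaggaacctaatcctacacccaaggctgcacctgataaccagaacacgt

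In *Oas1a* the capitals are 2 overlapping matches, the first of which begins 20 bases before the start, and in *Oas3* the match begins 75 bases before it. After the start, the matches were TTTCGATTTC in *Ddx58*, GAAACAGAAA in *Ifih1* and GAAAACGAAA in *Eif2ak2*, beginning 2, 32 and 18 bases downstream. A match describes these letters and shows no binding, and its relation to the ratios was not tested.

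Over all cells the 10 genes together held 627 UMIs in WT and 1995 in twi, a summed level of 168 CPM and 416 CPM. The ratio was 2.48 (95% interval 2.27 to 2.72). Each of the 10 genes was higher in twi, with *Zbp1* at 42.5 CPM in WT and 167 CPM in twi (ratio 3.92, interval 3.31 to 4.68), and *Oasl2* at the other end with 14.2 and 16.5 CPM (ratio 1.16, interval 0.812 to 1.68). At least 2-fold higher were 5 of the 10, *Zbp1*, *Ifih1*, *Oas3*, *Oas1a* and *Eif2ak2*, beside 4.69% of the 10267 genes with at least 25 UMIs over both libraries. The median log2 ratio was 0.98 over the members and -0.03 over all of these genes.

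The mix of cells differed between the libraries, and CD8 T cells supplied 15.3% of the members' UMIs in WT and 48.4% in twi. With the level of each class kept as in WT and the classes weighted as in twi, the summed level would have been 185 CPM, or 1.11 times that of WT. The twi level was 2.25 times that value, so a shift in class shares of this size gave a smaller ratio than the one measured.

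By class, the summed level was higher in twi with an interval above 1 in 5 of the 8 classes. NK cells had the largest ratio, 114 CPM in WT and 388 CPM in twi, or 3.41 (95% interval 2.12 to 5.71). Microglia followed with 306 and 893 CPM, or 2.92 (95% interval 1.65 to 5.58), CD4 T cells with 129 and 372 CPM, or 2.88 (95% interval 1.74 to 5.01), CD8 T cells with 218 and 503 CPM, or 2.30 (95% interval 1.87 to 2.87), and monocytes with 300.5 and 548 CPM, or 1.82 (95% interval 1.37 to 2.44). These intervals overlap, and the ratios of the 5 classes were not set against each other in a test. In cells with Y-linked transcripts and no *Xist* the ratio was 0.706 in microglia, below 1 with an interval that held 1, and 1.43 in CD8 T cells. As a mean over cells of each cell's share of UMIs it was 1.94 in microglia.

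In B cells the level was 148 CPM in WT and 162 CPM in twi (ratio 1.10, interval 0.821 to 1.46). Neutrophils had 194 and 257 CPM (ratio 1.32, interval 0.934 to 1.86), and *Cd163l1*+ T cells 251 and 289 CPM (ratio 1.15, interval 0.457 to 3.73) from only 5 WT UMIs. In these 3 classes the interval held 1. Leaving *Zbp1* out of the sum gave ratios of 2.08 in CD8 T cells, 3.22 in CD4 T cells, 5.48 in NK cells, 1.48 in monocytes, 2.35 in microglia, 1.06 in neutrophils and 1.06 in B cells, so the higher level of the first 5 classes did not rest on that gene.

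**Figure D1:**
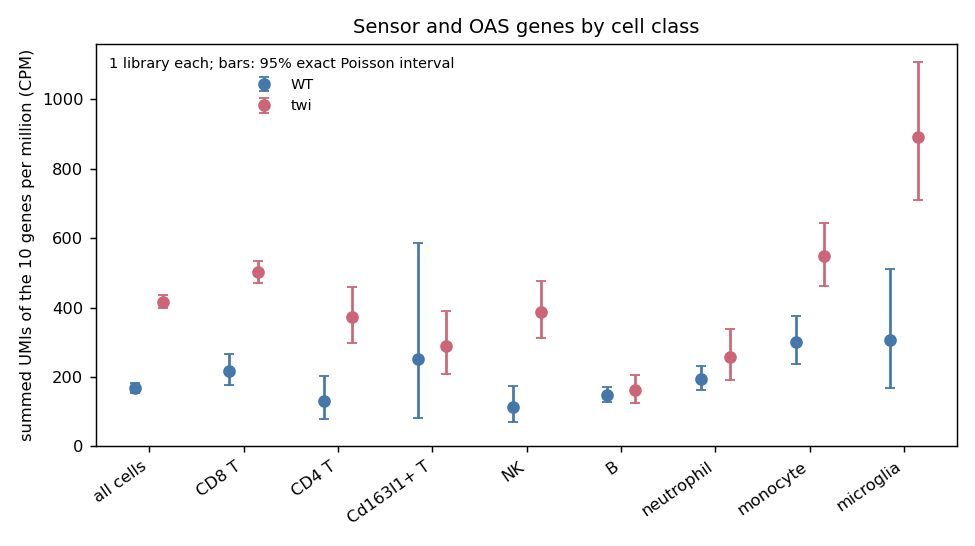
Summed level of the 10 sensor and OAS genes in CPM (linear axis) by cell class, with WT in blue and twi in red. Each point is 1 library and each bar its 95% exact Poisson interval, and the twi point lies above the WT point in every class, with 148 against 162 CPM in B cells and 306 against 893 CPM in microglia.

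The order of the classes in WT ran from microglia (306 CPM) and monocytes (300.5 CPM) down to CD4 T cells (129 CPM) and NK cells (114 CPM). In twi microglia (893 CPM), monocytes (548 CPM) and CD8 T cells (503 CPM) led, and B cells (162 CPM) were lowest. The intervals of monocytes and CD8 T cells overlapped in twi, as did those of B cells, CD4 T cells and NK cells in WT. Single cells weighed heavily in the small classes: 29 of the 82 twi microglial UMIs came from 1 cell, as did 18 of the 87 twi CD4 T cell UMIs and 19 of the 96 WT CD8 T cell UMIs. Without the cell with the most member UMIs in each library the ratios were 3.49 in microglia, 2.66 in CD4 T cells and 2.77 in CD8 T cells.

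**Figure D2:**
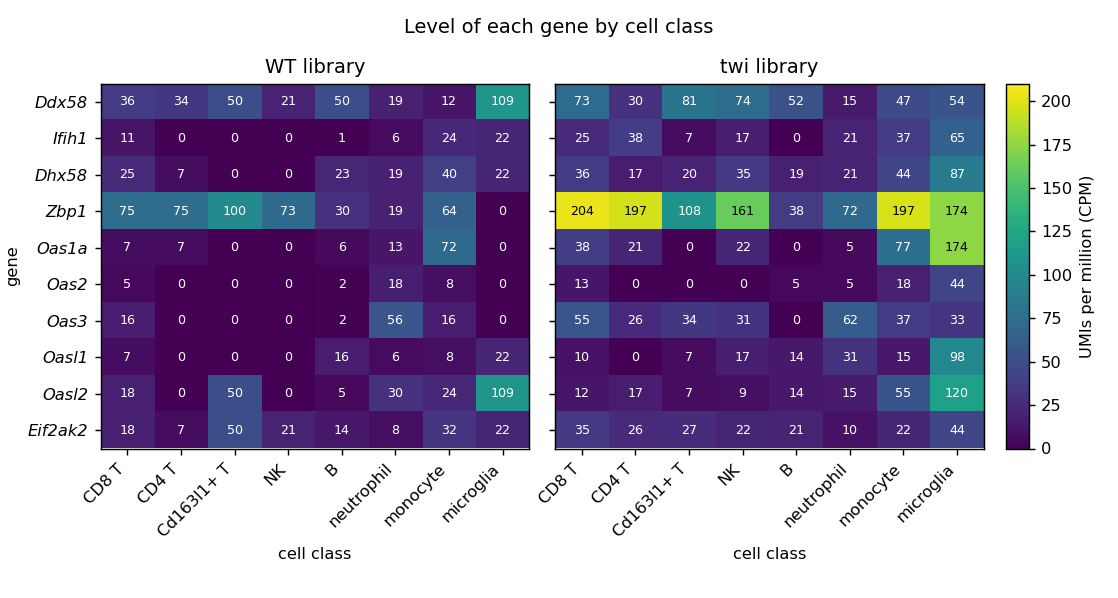
Level of each of the 10 genes in CPM (colour and number in each square) in the 8 cell classes of the WT library (left) and the twi library (right). *Zbp1* has the highest level in twi CD8 T cells, 204 CPM against 75.1 CPM in WT, while *Oas1a* is as high as *Zbp1* in twi microglia, at 174 CPM each.

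CD8 T cells had the most UMIs and were examined gene by gene. With at least 25 UMIs over both libraries, 9 of the 10 members could be compared and *Oasl1* could not. Of the 9, 8 were higher in twi and 6 at least 2-fold higher, beside 9.13% of the 6870 genes compared in this class, and 0 were at least 2-fold lower, beside 2.1%. The median log2 ratio was 1.14 over the members and 0.11 over all genes compared.

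Among the helicases, *Ddx58* had 16 UMIs in WT and 141 in twi CD8 T cells, or 36.4 and 73.4 CPM (ratio 2.02, interval 1.20 to 3.62). *Ifih1* had 5 and 48 UMIs and a ratio of 2.20 (95% interval 0.879 to 7.07), and the regulator *Dhx58* 11 and 70 UMIs and a ratio of 1.46 (95% interval 0.766 to 3.05). The interval lay above 1 for *Ddx58* and held 1 for the other two. A UMI of *Ifih1* was found in 4.59% of WT and 9.05% of twi CD8 T cells, against 1 of 558 WT and 0 of 167 twi B cells.

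*Zbp1* was the most abundant member. It had 33 UMIs in WT and 392 in twi CD8 T cells, or 75.1 and 204 CPM (ratio 2.72, interval 1.90 to 4.005). It made up 34.4% of the members' UMIs of this class in WT and 40.6% in twi. A *Zbp1* UMI was seen in 21.1% of WT and 43.3% of twi CD8 T cells. With every cell thinned to 1000 UMIs, which removes the difference in depth (medians of 3565 and 4001.5 UMIs), the shares were 6.51% and 16.9%, against 3.08% of WT and 3.66% of twi B cells (medians of 2001 and 2210 UMIs).

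*Oas1a*, *Oas3* and *Oas2* had the highest values of the ratio in CD8 T cells, with intervals that overlap those of *Zbp1* and *Ddx58*. *Oas1a*, whose 3′ end shares sequence with *Oas1g*, had 3 UMIs in WT and 73 in twi CD8 T cells (ratio 5.57, interval 1.83 to 27.6). *Oas1g* itself had 1 UMI in WT and 1 in twi CD8 T cells. *Oas3*, the largest of the synthetases, had 7 and 106 UMIs, or 15.9 and 55.2 CPM (ratio 3.47, interval 1.62 to 8.83), and it was seen in 5.50% of WT and 19.5% of twi CD8 T cells (1.96% and 5.94% after thinning). B cells had *Oas3* in 2 of 558 WT and 0 of 167 twi cells. *Oas2* had 2 and 25 UMIs, a ratio of 2.86 with an interval that held 1 (95% interval 0.713 to 24.9).

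The OAS-like genes had lower ratios with wide intervals. *Oasl1*, whose product restrains the translation of IRF7, had 3 UMIs in WT and 19 in twi CD8 T cells (ratio 1.45, interval 0.427 to 7.65). *Oasl2*, whose product keeps the synthetase activity, had 8 and 24 UMIs, or 18.2 and 12.5 CPM (ratio 0.686, interval 0.298 to 1.77), and it was the member with a ratio below 1. The kinase gene *Eif2ak2* had 8 and 68 UMIs (ratio 1.95, interval 0.933 to 4.69). For these 3 genes the interval held 1.

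**Figure D3:**
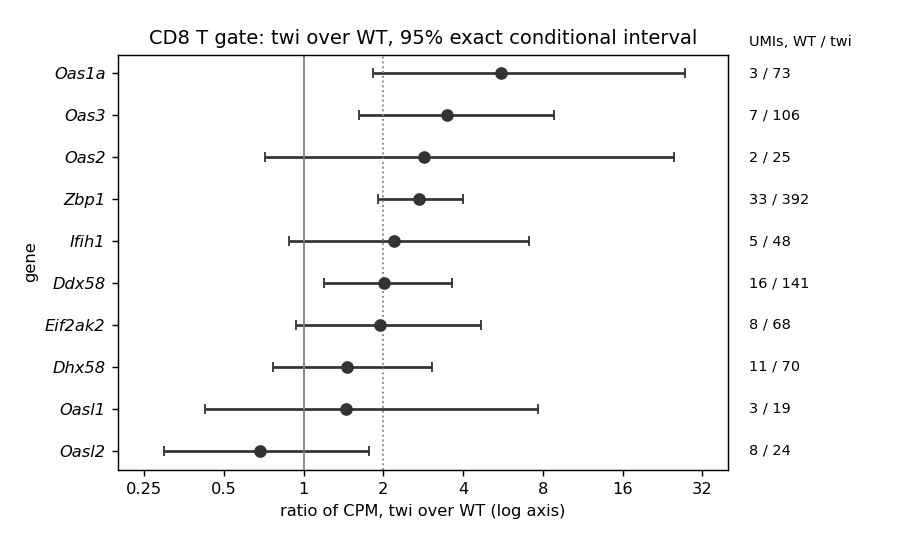
Ratio of CPM, twi over WT, for each of the 10 genes in CD8 T cells (log axis) with its 95% exact conditional interval and the UMIs of both libraries at the right. The solid line marks a ratio of 1 and the dotted line 2, and the intervals of *Oas1a*, *Oas3*, *Zbp1* and *Ddx58* lie above 1.

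Some RNA of other cells differed between the libraries inside the CD8 T gate. The neutrophil gate genes, 8 of 8 detected in both libraries, had 1367 CPM in WT and 425 CPM in twi, and the erythroid genes 1367 and 775 CPM. Of the plasmacytoid dendritic cell list (*Siglech*, *Ccr9*, *Tcf4*, *Bst2*) 3 of 4 genes were seen in WT and 4 of 4 in twi, at 200.2 and 445 CPM, but *Bst2*, which interferon induces in many cells, accounted for 70 of 88 UMIs in WT and 820 of 854 in twi. Oligodendrocyte genes (2 of 3 detected in both) were close, at 61.4 and 55.2 CPM, as were endothelial genes (1 of 3), at 29.6 and 28.6 CPM. Astrocyte genes had 0 UMIs in both. The part of these RNAs in the ratios was not tested.

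Detection in the same cell was counted next. At least 3 different members were seen in 6 of 109 WT CD8 T cells, or 5.50% (exact 95% interval 2.05 to 11.6%), and in 86 of 420 twi CD8 T cells, or 20.5% (exact 95% interval 16.7 to 24.7%). At least 1 member was seen in 41.3% and 67.9%. With cells thinned to 1000 UMIs in a single random draw, at least 3 members were seen in 0 of 108 WT and 10 of 416 twi cells. For 2 or more members the thinned shares were 3.70% (exact 95% interval 1.02 to 9.21%) and 10.3% (exact 95% interval 7.58 to 13.7%). These intervals overlap. Without thinning, at least 3 members were seen in 2 of 18 WT microglia (11.1%) and 9 of 16 twi microglia (56.2%). In B cells these shares were 0.896% and 1.80%. After thinning, 2 or more members were seen in 1 of 17 WT and 3 of 15 twi microglia. These shares were 5.88% (exact 95% interval 0.149 to 28.7%) and 20% (exact 95% interval 4.33 to 48.1%), with intervals that overlap. In B cells the thinned shares were 2.15% in WT and 1.21% in twi.

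CD8 T cells with a *Zbp1* UMI also held more of the other 9 genes. In twi their level was 405 CPM in the 182 cells with *Zbp1* and 191 CPM in the 234 cells without it that had at least 1000 UMIs. In WT it was 285 CPM in 23 cells and 98.9 CPM in 85, but 10 of the 30 UMIs behind the 285 CPM lay in 1 cell. Cells with *Zbp1* were deeper, with medians of 4471 against 3674 UMIs in twi. After thinning, 32.7% and 18.7% of the twi cells, and 21.0% and 10.0% of the WT cells, had a UMI of another member. The order was thus the same in both libraries with the other members read at equal depth. The split by *Zbp1* was made on counts that were not thinned, so the groups themselves were not formed at equal depth.

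**Figure D4:**
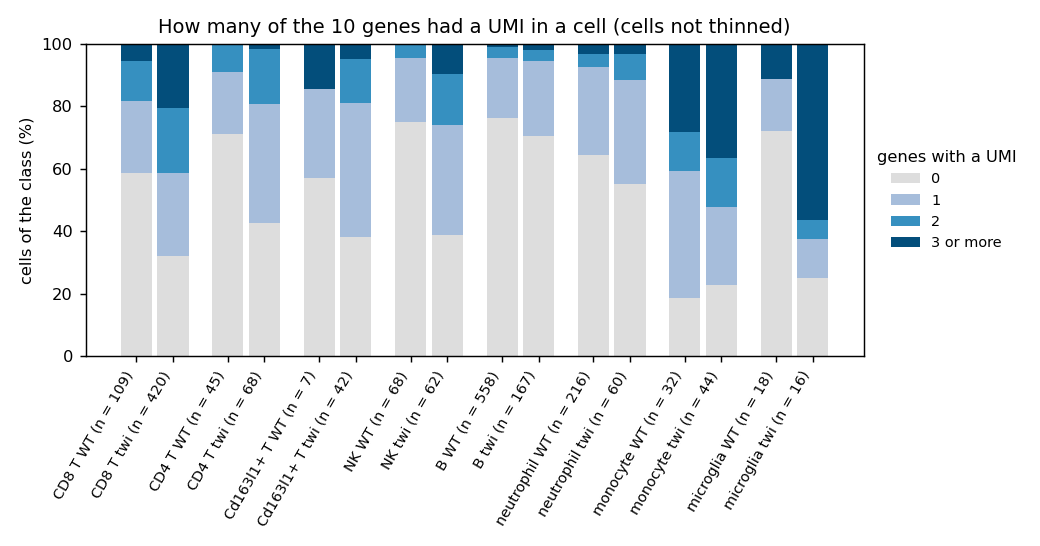
Share of cells (%) of each class and library in which 0, 1, 2 or at least 3 of the 10 genes had a UMI, with the number of cells under each bar. The darkest block, at least 3 genes, is 5.50% in WT and 20.5% in twi CD8 T cells and 11.1% and 56.2% in microglia, without correction for depth.

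In the other lymphocytes, 1 member each reached 25 UMIs in CD4 T and NK cells, and in both it was *Zbp1*. CD4 T cells had 11 UMIs of it in WT and 46 in twi (ratio 2.63, interval 1.34 to 5.63), beside 4.6% of genes that were at least 2-fold higher in that class. NK cells had 14 and 37 UMIs (ratio 2.23, interval 1.18 to 4.46), beside 3.46%. Several other members had no UMI in WT and were seen in twi. With the WT class set to a floor of 3 UMIs, *Dhx58* had a ratio of 2.25 in NK cells, from 8 twi UMIs. *Oas3* had a ratio of 1.97 there, from 7, and *Ifih1* had 1.89 in CD4 T cells, from 9. These ratios leave out the counting error of the twi UMIs. The exact intervals, which use the observed counts, had lower limits of 1.44, 1.21 and 1.24 in the same order, all below 2-fold. *Ddx58* had 4 UMIs in WT and 17 in twi NK cells (ratio 3.58, interval 1.17 to 14.6). All these members except *Zbp1* lay below the limit of 25 UMIs, and they are named because their intervals lay above 1. For the other members seen in CD4 T and NK cells the interval held 1. Among those, *Eif2ak2* had 4 and 5 UMIs in NK cells (ratio 1.05, interval 0.227 to 5.31). *Ddx58* was lower in twi CD4 T cells, with 5 and 7 UMIs, or 34.0 and 29.9 CPM.

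In B cells, where the interval of the summed ratio held 1, single members were compared as well. Of 5 members with at least 25 UMIs, 0 were at least 2-fold higher, beside 1.48% of genes. *Ddx58* had 50.3 CPM in WT and 51.7 CPM in twi B cells (ratio 1.03, interval 0.602 to 1.70), and *Zbp1* 30.0 and 37.6 CPM (ratio 1.25, interval 0.651 to 2.31). *Oas1a* had 7 UMIs in WT and 0 in twi B cells. These intervals leave room for changes of up to 1.70-fold in *Ddx58* and 2.31-fold in *Zbp1*.

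In the myeloid classes *Zbp1* was again higher in twi. Monocytes had 16 UMIs in WT and 54 in twi (ratio 3.08, interval 1.73 to 5.76), and it was 1 of 2 members compared, beside 3.68% of genes at least 2-fold higher. The other, *Oas1a*, had 72.1 and 76.7 CPM (ratio 1.06, interval 0.539 to 2.12). *Ddx58* in monocytes had 3 and 13 UMIs (ratio 3.95, interval 1.09 to 21.6). In neutrophils *Zbp1* had 12 and 14 UMIs (ratio 3.77, interval 1.62 to 8.93), beside 5.63% of genes, but 7 of the 14 twi UMIs lay in 1 cell, and without the cell with the most member UMIs in each library the ratio of the sum in neutrophils was 1.06. *Oas3* had its highest WT level in neutrophils, 55.7 CPM, and 61.8 CPM in twi (ratio 1.11, interval 0.524 to 2.19).

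In microglia no member reached 25 UMIs. *Zbp1* and *Oas1a* each had 0 UMIs in 18 WT cells and 16 UMIs in 16 twi cells. With WT set to a floor of 3 UMIs, the ratio was 2.66 for each, which leaves out the counting error of the twi UMIs. The exact interval, which uses the observed counts, had a lower limit of 1.92 for each. *Oasl2* had 5 and 11 UMIs (ratio 1.10, interval 0.352 to 4.03), and *Ddx58* 5 UMIs in each library. All 5 WT UMIs of *Oasl2* lay in 1 of 18 cells, while the twi UMIs came from 6 of 16 cells. The differences between these genes were not tested, and the interval of *Oasl2* also holds a 2.66-fold difference.

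Restricting both libraries to cells with Y-linked transcripts and no *Xist* gave 287 UMIs in 487 WT cells and 318 UMIs in 207 twi cells, or 162 and 369 CPM over all cells (ratio 2.28, interval 1.94 to 2.68). By class, the ratio was 1.43 in CD8 T cells (95% interval 1.01 to 2.02, with 51 WT and 53 twi cells), 5.30 in CD4 T cells (95% interval 2.77 to 10.8), 3.92 in NK cells (95% interval 2.0005 to 8.26), 1.37 in B cells (95% interval 0.767 to 2.34) and 2.61 in monocytes (95% interval 1.69 to 4.06). In microglia it was 0.706 (95% interval 0.264 to 1.89), from 7 WT and 4 twi cells. The direction in microglia therefore turned, and the ratio in CD8 T cells was smaller than over the whole gate. The WT library had 0 cells with *Xist* and no Y-linked transcript, so there the choice went by detection of Y-linked transcripts. WT cells with and without them had 273 and 151 CPM in CD8 T cells, and 581 and 140 CPM in microglia (7 and 11 cells). The order was the other way in WT B cells (125 and 164 CPM) and monocytes (214 and 585 CPM). The part of this in the ratios was not tested.

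Within the twi library, CD8 T cells with *Xist* had 533 CPM and those with Y-linked transcripts 391 CPM (ratio 1.36, interval 1.07 to 1.75). The same ratio was 2.73 in microglia (interval 1.38 to 6.01, from 7 and 4 cells), 0.331 in CD4 T cells (interval 0.176 to 0.599) and 0.442 in B cells (interval 0.189 to 0.988), and in the other classes the interval held 1. Single cells weighed on the smaller classes: 29 of the 55 UMIs of microglia with *Xist* and 18 of the 39 of CD4 T cells with Y-linked transcripts lay in 1 cell. Without the cell with the most member UMIs on each side, a choice made after seeing the data, the ratio was 1.48 in CD8 T cells (interval 1.15 to 1.93), 0.465 in CD4 T cells (interval 0.219 to 0.958), 1.67 in microglia (interval 0.673 to 4.97) and 0.449 in B cells (interval 0.161 to 1.17). The interval then held 1 in microglia and B cells. In CD8 T cells with Y-linked transcripts, *Zbp1* had 78.7 CPM in WT and 149 CPM in twi (ratio 1.89, interval 1.03 to 3.57), *Dhx58* 9 and 4 UMIs (ratio 0.552, interval 0.124 to 1.98), and *Eif2ak2* 8 and 4 UMIs (ratio 0.621, interval 0.137 to 2.32). *Oasl1* (2 and 1 UMIs, ratio 0.621) and *Oasl2* (8 and 6 UMIs, ratio 0.931) also lay below 1, and the other members lay above it. Single cells weighed here too. Without the cell with the most member UMIs in each library, again chosen after seeing the data, the ratio of the sum was 1.74 (interval 1.18 to 2.58). With those cells kept, the interval lay above 1 for *Zbp1* and held 1 for the other 9 members. Single members were not recomputed without them. Cells with a given set of sex transcripts come from few animals, so sex and animal cannot be told apart.

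**Figure D5:**
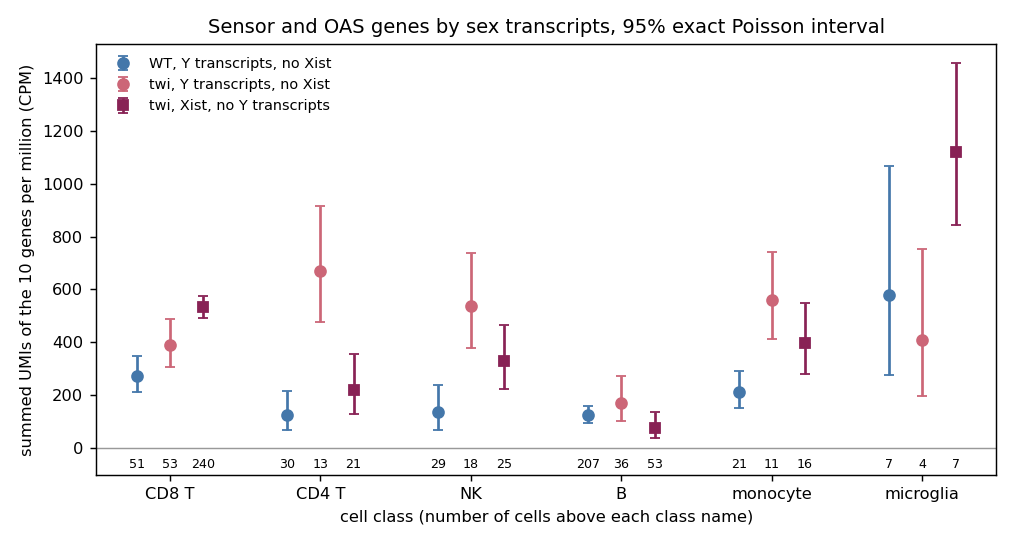
Summed level of the 10 genes in CPM (linear axis) in cells with Y-linked transcripts and no *Xist* (circles, WT blue and twi red) and in twi cells with *Xist* and no Y-linked transcript (squares), with 95% exact Poisson intervals and the number of cells above each class name. In CD8 T cells the levels are 273, 391 and 533 CPM, and in CD4 T cells the twi cells with Y-linked transcripts stand highest, at 670 CPM.

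A wider list of 46 genes of sensing, OAS, necroptosis and interferon signalling, of which 45 were in the annotation, was read beside the members. In CD8 T cells 31 had at least 25 UMIs, 26 of these were higher in twi, 6 at least 2-fold higher, beside 9.13% of all genes compared, and 0 at least 2-fold lower, beside 2.1%, with a median log2 ratio of 0.50 beside 0.11 over all genes. The 6 were *Usp18*, which dampens interferon receptor signalling, at 3.26 (95% interval 1.86 to 6.23), *Stat2* at 2.75 (95% interval 0.868 to 13.9), the cytokine signalling inhibitor *Socs1* at 2.52 (95% interval 1.43 to 4.84), the helicase *Ddx60* at 2.42 (95% interval 1.12 to 6.23), the transcription factor *Irf7* at 2.24 (95% interval 1.56 to 3.31) and the kinase *Tbk1* at 2.20 (95% interval 0.879 to 7.07).

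Genes of the list with an interval below 1 in CD8 T cells were the kinase *Ikbke*, with 31 and 69 UMIs (ratio 0.509, interval 0.329 to 0.805), and the interferon receptor kinase *Jak1* (ratio 0.719, interval 0.601 to 0.864), both named after their values were seen. Genes of the list with an interval above 1 and a ratio below 2 were not picked out in this way. Direct partners of the members were also counted in this class. *Mavs*, the adaptor of RIG-I and MDA5, had 3 and 26 UMIs (ratio 1.98, interval 0.608 to 10.2). *Ripk3* had 9 and 70 UMIs (ratio 1.78, interval 0.886 to 4.05). Both intervals held 1. *Mlkl*, the pore-forming partner of *Ripk3*, had 0 and 3 UMIs, and over all cells 17 and 11 (ratio 0.505, interval 0.214 to 1.14). *Ifnb1* had 0 UMIs in both libraries. *Ifng*, also on the list, had 24 and 131 UMIs in CD8 T cells (ratio 1.25, interval 0.804 to 2.02). Over all cells *Ifng* had 116 and 296 UMIs (ratio 1.99, interval 1.60 to 2.49).

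Over all cells 39 genes of the wider list were compared, of which 5 were at least 2-fold higher in twi, beside 4.69% of all genes, and 0 at least 2-fold lower, beside 7.35%. Among the 5 were *Usp18* at 6.29 (95% interval 4.52 to 8.97), *Irf7* at 4.14 (95% interval 3.46 to 5.001), *Socs1* at 2.31 (95% interval 1.85 to 2.90) and *Ddx60* at 2.22 (95% interval 1.60 to 3.12). In NK cells 12 were compared, of which 3 were at least 2-fold higher, beside 3.46% of all genes, and 1 at least 2-fold lower, beside 3.29%. *Ifnar2* at 3.61 and *Irf7* at 3.45 were among the 3, and *Samhd1* at 0.455 was the gene that was lower.

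The pattern of the summed members over the 8 classes in 2 libraries was compared with 4971 other genes by Pearson's correlation of log2(CPM + 10), a description over 16 points that share their libraries. The nearest were *Rtp4* (r = 0.823), *Irf7* (r = 0.817), *Bst2* (r = 0.8004), *Tspan31* (r = 0.726) and *Ifnar2* (r = 0.722). In CD8 T cells their ratios of twi to WT were 3.87, 2.24, 2.68, 1.60 and 1.81. Among the members, *Ifih1* was closest to the sum of the others (r = 0.871), and *Ddx58* (r = 0.175) and *Zbp1* (r = 0.201) had the lowest values. *Zbp1* had 0 UMIs in WT microglia, and without that point, a choice made after seeing the data, r was 0.492 for *Zbp1* and 0.226 for *Ddx58* over 15 points.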

How the data were processed

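CD45+ brain cells of WT and twi mice were compared through 1 pooled library each. The count of UMIs per gene and barcode is as the authors deposited it, not normalized; the submitters' processing notes name Cell Ranger 2.1.1 and mm10. The labels give 1 h of digestion with collagenase and dispase, and the methods of the study give collagenase D. The members and the gene lists were chosen with earlier results of these data known, and 3 alternatives were added after seeing the data.

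Barcodes with more than 15% mitochondrial UMIs were removed. T cells needed at least 2 UMIs of *Cd3d*, *Cd3e* and *Cd3g*, and were CD8, CD4 or *Cd163l1*+ T cells by *Cd8a* or *Cd8b1*, *Cd4*, or neither with *Cd163l1*. NK cells needed at least 2 UMIs of *Ncr1*, *Klrb1c*, *Klre1*, *Klra8* and *Eomes* and no *Cd3* UMI, and B cells at least 3 over a list with *Cd79a*, *Cd79b* and *Ms4a1*. Neutrophils needed at least 2% of UMIs from 8 granule genes, microglia at least 5 C1q UMIs, and monocytes at least 2 *Lyz2* UMIs with 2 of 5 monocyte genes and fewer C1q UMIs. Barcodes that passed the gates of more than 1 lineage (42 in each library) were left out of the classes. No doublet caller was run, so doublets within a lineage may remain.

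UMIs were summed per library and class and divided by the class total (CPM). Intervals were exact: Poisson for CPM, conditional binomial for ratios and Clopper-Pearson for shares of cells (scipy 1.17.1, numpy 2.4.6, Python 3.11.15). A gene was compared with at least 25 UMIs over both libraries, and at least 2-fold was used as the limit for counts. A WT sum of 0 was set to a floor of 3 UMIs. Named genes were all 10 members, *Mavs*, *Ripk3*, *Mlkl*, *Irf7*, the 5 nearest genes by correlation, and *Galc*. Genes of the wider list at or past 2-fold were named for CD8 T cells, and in part for all cells and NK cells. Those past 2-fold in other classes are not given. *Ikbke*, *Jak1*, *Ifnb1* and *Ifng* were named outside this rule. On counts simulated for CD8 T cells, twi against WT, over 6870 genes, the interval held the true ratio for 96% of 200 changed genes. These counts were drawn from the Poisson model that the interval assumes. The result therefore checks the computation only, and not how the interval fares where UMIs gather in single cells. No p-value is given. Some single genes and a comparison within CD8 T cells are left out.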

Additional observations from a re-analysis of the deposited data

Results flagged for a closer look

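Cells outside the 8 classes were not used in the comparisons by class, and a group of them also differed. T cells that passed none of the CD8, CD4 and *Cd163l1* gates (122 WT and 228 twi cells) had 48 and 339 UMIs of the 10 genes, or 150 and 430 CPM (ratio 2.87, interval 2.12 to 3.97). Barcodes that passed the gates of more than 1 lineage had 23 and 93 UMIs, or 77.2 and 303 CPM (ratio 3.92, interval 2.46 to 6.49). In both, the twi interval lay above the WT interval. Such barcodes can hold more than 1 cell, and the part of this in the ratio was not tested.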

How the results depend on the processing

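The ratio of the summed members was recomputed under 14 other choices of mitochondrial limit, gates, weighting, depth, sex transcripts and single cells. Of 125 values, 117 lay inside the interval reported above. Many of these could not move: the choices of gate do not enter the ratio over all cells, and most left NK cells at 3.41. The depth choice was a mean over cells with at least 1000 UMIs, and in monocytes it equalled the mean over all cells, 1.53. The count of 117 is therefore no measure of robustness. Over all cells the ratio ran from 2.23, as a mean over cells of each cell's share of UMIs, to 2.53. In CD8 T cells it ran from 1.43 to 2.77, in NK cells from 3.34 to 3.92, in neutrophils from 1.06 to 1.57, in B cells from 0.989 to 1.37, in *Cd163l1*+ T cells from 1.14 to 1.92, in CD4 T cells from 2.58 to 5.30, in monocytes from 1.42 to 2.61 and in microglia from 0.706 to 4.30. In cells with Y-linked transcripts and no *Xist* the ratio was 1.43 in CD8 T cells, 5.30 in CD4 T cells and 2.61 in monocytes. In microglia it was 0.706, a reversed direction from 7 WT and 4 twi cells. Leaving out in addition the cell with the most member UMIs in each library, which was chosen after seeing the data, gave 1.74 in CD8 T cells, 3.92 in CD4 T cells, 2.48 in monocytes and 1.53 in microglia, and no value in *Cd163l1*+ T cells, where no WT UMI was left. The cause of these shifts was not tested.

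Of 32 counts of members at least 2-fold higher, 24 stayed within 1.5 times the count reported. Each count is followed by the share of all genes past the same limit. A limit of 1.5-fold gave 9 of 10 over all cells (11.2%) and 1 of 5 in B cells (7.12%). A minimum of 10 UMIs gave 2 of 2 in NK cells (8.04%), 1 of 6 in B cells (3.82%), 2 of 7 in neutrophils (9.56%) and 4 of 8 in monocytes (7.15%). Cells with Y-linked transcripts only gave 3 of 7 over all cells (3.44%) and 0 of 1 in CD8 T cells (4.37%). A minimum of 50 UMIs and the Y-linked choice left no member to compare in some classes. No paired analysis was possible because each genotype had a single library. Depth limits the small classes most, with 5 WT UMIs in *Cd163l1*+ T cells and 14 in microglia.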
